A study of Mus musculus with 21 samples.

Results

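The 10 genes described here encode enzymes of fatty acid synthesis, elongation and desaturation, together with 1 of their transcriptional regulators. They are Acly, Acss2 and Me1, which supply acetyl-CoA or NADPH, Acaca and Fasn, the carboxylase and the synthase, Elovl6 for elongation, Scd1, Fads1 and Fads2 for desaturation, and the regulator Srebf1. They were chosen by name with earlier results of these data known, so shares of all genes tested are set beside them as description only. All 10 were found by symbol among the 46517 Ensembl genes that were counted. PolyA RNA of left ventricle, labelled heart, was sequenced from C57BL/6J mice that were either Notch3 +/+ (control, 4 mice) or Notch3 -/- (3 mice). The Notch3-/- mice carry lacZ inserted into the Notch3 locus. Mice of both genotypes were 10 to 14 months old, and their sex is not given. Each mouse has 3 technical libraries, 21 in all, whose counts were added up to give 1 value per mouse.

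Control mice 1 to 4 had totals of 3091461, 4638786, 4208205 and 3046326 counts, and Notch3-/- mice 1 to 3 had 3828763, 5167869 and 5086740. Values of single mice are given in this order throughout. Control mice 1 and 2 carry labels that start with X and the other mice labels that start with k, so the X label occurs in 1 genotype only. Levels are given as counts per 1e+06 counts after TMM scaling (CPM), a scaling that assumes that the bulk of the genes is equal between mice. Differences between the genotypes were tested with edgeR over the 14324 genes that passed its expression filter, and p-values were adjusted over all of them to a false discovery rate (FDR). A gene was called when its FDR was below 0.05 and its fold change at least 1.5.

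Notch3 itself (ENSMUSG00000038146, chr17:32120820-32166852, minus strand) was measured first, since it checks the genotype labels. Control hearts had 57.3, 42.1, 57.6 and 61.8 CPM of Notch3, and Notch3-/- hearts 6.01, 7.57 and 4.73 CPM. Each Notch3-/- mouse was far below each control mouse, including mouse 3, which differed from the other Notch3-/- mice in most results given here. Notch3 fell by 3.16 on the log2 scale (SE 0.23, FDR 0.00173), in 3 of 3 mice. The tissue label was checked with 11 cardiomyocyte markers, all of which were above 10 CPM in control hearts. Myh6, the main myosin heavy chain of the adult mouse heart, had 14789 to 18571 counts in each of the 7 mice.

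Fatty acid synthesis starts from acetyl-CoA in the cytosol. ATP citrate lyase (Acly) makes it from citrate and acetyl-CoA synthetase (Acss2) from acetate, acetyl-CoA carboxylase (Acaca) turns it into malonyl-CoA, and fatty acid synthase (Fasn) builds palmitate with NADPH that malic enzyme (Me1) helps to supply. Elovl6 lengthens palmitate, Scd1 puts the first double bond into saturated chains, and Fads1 and Fads2 add double bonds to polyunsaturated chains. SREBP1, the product of Srebf1, is a transcription factor known to drive many of these genes. Liver and fat tissue are known as main sites of this synthesis, while the adult heart mostly takes up fatty acids and burns them.

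The 10 genes were higher than in any control heart in Notch3-/- mice 1 and 2, with the highest values in mouse 2, and lay near the control level in mouse 3. None of the 10 was called by edgeR with all 7 mice, against 1 gene, Notch3, of the 14324 tested (0.00698%). All 10 were higher in Notch3-/- hearts with an edgeR p below 0.05 before adjustment, as were 1051 of the genes tested (7.34%). DESeq2 on the same mice called 8 of the 10, all but Acly and Me1, among 597 of the 17393 genes with an adjusted p (3.43%), and limma-voom called 0, with 6 higher at p below 0.05 before adjustment (4.63% of the genes tested). The median log2 fold change of the 10 was 2.37 in edgeR, beside -0.0028 for all genes tested. More or fewer cells of a type cannot be told apart from more or less RNA per cell in bulk samples.

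**Figure D1:**
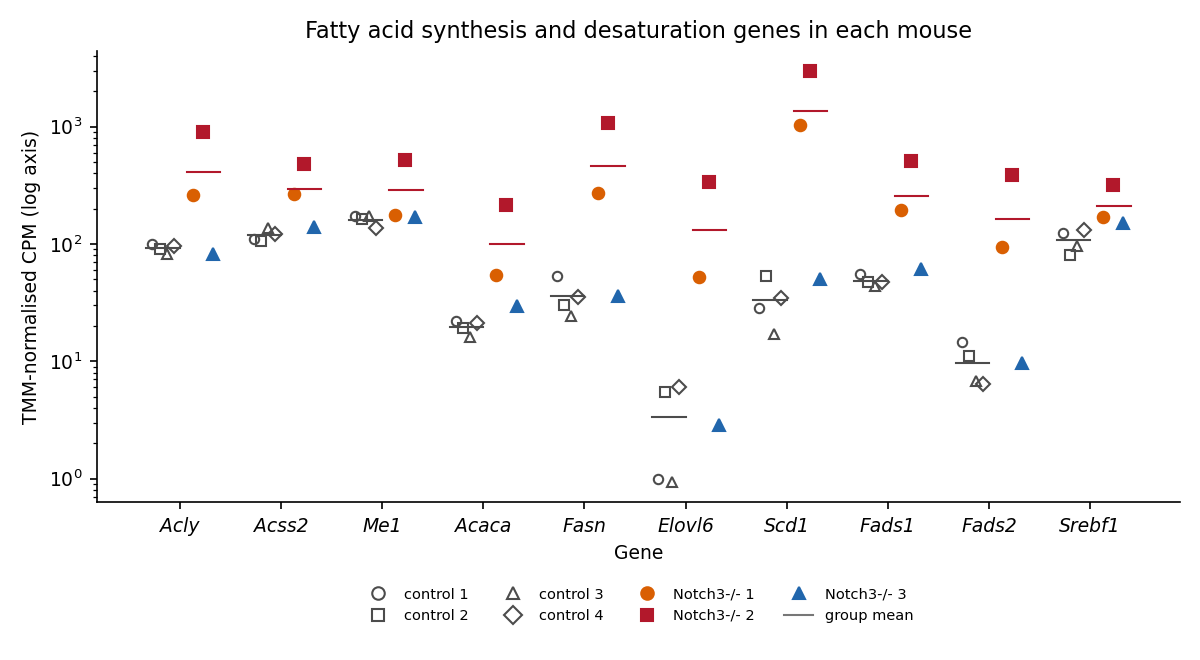
TMM-normalised CPM (log axis) of the 10 genes in each of the 7 mice. Open grey symbols are the 4 control mice, filled symbols the 3 Notch3-/- mice, and lines the group means. Notch3-/- mice 1 and 2 lie above the control mice for all 10 genes, and mouse 3 does so for 4 of them.

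Of the genes that supply acetyl-CoA and NADPH, Acly (ENSMUSG00000020917, chr11:100476353-100528000, minus strand) stood at 100.1, 90.2, 82.1 and 96.5 CPM in control hearts and at 263, 896 and 82.1 CPM in Notch3-/- hearts. Notch3-/- mice 1 and 2 were well above the narrow control range, and mouse 3 was at its lower end. The means were 92.2 ± 7.90 CPM (SD, n = 4) and 414 ± 428 CPM (SD, n = 3), with a log2 fold change of 2.17 (SE 0.59, FDR 0.220). Acss2 (ENSMUSG00000027605, chr2:155517948-155585724, plus strand) stood at 109.7, 105.6, 138.1 and 122.6 CPM and, in Notch3-/- hearts, at 269, 482 and 138.6 CPM. The genotypes did not overlap, but mouse 3 exceeded the highest control mouse by very little. Its log2 difference came to 1.32 (SE 0.33, FDR 0.186). It shares 395 exon bases with Gss, 335 with Acss2os and 197 with Ggt7, which lie on the opposite strand, and whether the counting used the strand is not given in the sources used here. Acss2os itself had 26 to 51 counts per control and 57 to 159 counts per Notch3-/- mouse, compared with 333 to 587 and 733 to 2291 counts of Acss2.

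Me1 (ENSMUSG00000032418, chr9:86581371-86695953, minus strand) had the smallest log2 fold change of the 10 genes. Control hearts held 174, 164, 172 and 136 CPM of it, and Notch3-/- hearts 178, 524 and 168 CPM. Only mouse 2 stood apart, since mouse 1 was just above the highest control mouse and mouse 3 was among them. The difference of 0.85 on the log2 scale (SE 0.35, FDR 0.454) rests on 1 mouse, and without mouse 2 it was 0.10 (FDR 0.937).

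The carboxylase and the synthase carry out the next steps. Acaca (ENSMUSG00000020532, chr11:84129672-84401651, plus strand) was at 22.1, 19.4, 16.2 and 21.4 CPM in control and at 54.7, 216 and 29.3 CPM in Notch3-/- hearts. All 3 Notch3-/- mice were above the control mice, mouse 3 by the smallest step. In mouse 3, 76 of the 155 counts of Acaca came from technical library 2, the only one of its 3 above all control libraries. With means of 19.8 ± 2.61 CPM (SD, n = 4) and 100.1 ± 101 CPM (SD, n = 3), the log2 fold change of Acaca was 2.34 (SE 0.56, FDR 0.168). Fasn (ENSMUSG00000025153, chr11:120805846-120824547, minus strand) was at 53.0, 29.9, 24.5 and 35.4 CPM in control and at 269.7, 1071 and 36.3 CPM in Notch3-/- hearts. Mice 1 and 2 were 7.55 and 30.01 times the control mean, whereas mouse 3 was at 1.02 times that mean and inside the control range. On the log2 scale Fasn differed by 3.69 (SE 0.83, FDR 0.164).

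Elovl6 (ENSMUSG00000041220, chr3:129532355-129638495, plus strand) had the fewest counts of the 10 genes in control hearts, 3, 26, 4 and 18, or 0.988, 5.48, 0.941 and 6.01 CPM. In Notch3-/- hearts it had 191, 1603 and 15 counts, or 52.2, 337 and 2.84 CPM. Mouse 1 was 15.6 times and mouse 2 100.5 times the control mean, and mouse 3 was between the control mice. On the log2 scale Elovl6 differed by 5.27 (SE 1.25, FDR 0.168). With so few counts in control hearts the multiples carry a wide counting error. In control mouse 2, 20 of the 26 counts came from 1 library, and in control mouse 4 16 of the 18 did. The control mean and the multiples depend on these libraries.

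Among the desaturases, Scd1 (ENSMUSG00000037071, chr19:44394455-44407879, minus strand) reached 28.6, 53.7, 16.9 and 34.7 CPM in control and 1041, 2968 and 49.9 CPM in Notch3-/- hearts. Mouse 1 was 31.1 and mouse 2 88.6 times the control mean, while mouse 3 was below control mouse 2. The log2 fold change of 5.33 (SE 1.01, FDR 0.118) was the largest of the 10 in the fit on 7 mice. Elovl6 was close at 5.27 (SE 1.25), and their order changed in some fits. Without control mouse 4, for example, Elovl6 was at 5.62 and Scd1 at 5.35. Fads2 (ENSMUSG00000024665, chr19:10062765-10101746, minus strand) showed the same division at a lower level, with 14.5, 11.2, 6.82 and 6.35 CPM in control and 94.8, 386 and 9.64 CPM in Notch3-/- hearts. The log2 difference came to 4.07 (SE 0.92, FDR 0.164), and mouse 3 was again inside the control range.

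Fads1 (ENSMUSG00000010663, chr19:10182888-10196877, plus strand) reached 55.6, 47.2, 44.0 and 47.1 CPM in control and 196, 509 and 60.7 CPM in Notch3-/- hearts. Here the genotypes did not overlap, with mouse 3 at 1.25 times the control mean and mice 1 and 2 at 4.05 and 10.5 times. The fitted log2 difference was 2.396 (SE 0.53, FDR 0.156). Fads1 and Fads2 lie 81141 bases apart on opposite strands, and Scd1 and Scd2 lie 87590 bases apart on the same chromosome. How reads that match several related desaturase genes were assigned is not given in the sources used here.

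The regulator Srebf1 (ENSMUSG00000020538, chr11:60199089-60222581, minus strand) reached 2.95 times the control mean in mouse 2, the smallest multiple of the 10 genes in that mouse. Control hearts held 123, 80.7, 95.3 and 131.9 CPM, and Notch3-/- hearts 169, 317 and 150.1 CPM. All 3 Notch3-/- mice were above the 4 control mice, and mice 1 and 3 were close to each other. The means were 108 ± 23.9 CPM (SD, n = 4) and 212 ± 91.7 CPM (SD, n = 3), with a log2 fold change of 0.98 (SE 0.27, FDR 0.226). Srebf1 shares 109 exon bases with Rai1 on the opposite strand, which had 134 to 188 counts per control and 134 to 259 counts per Notch3-/- mouse.

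**Figure D2:**
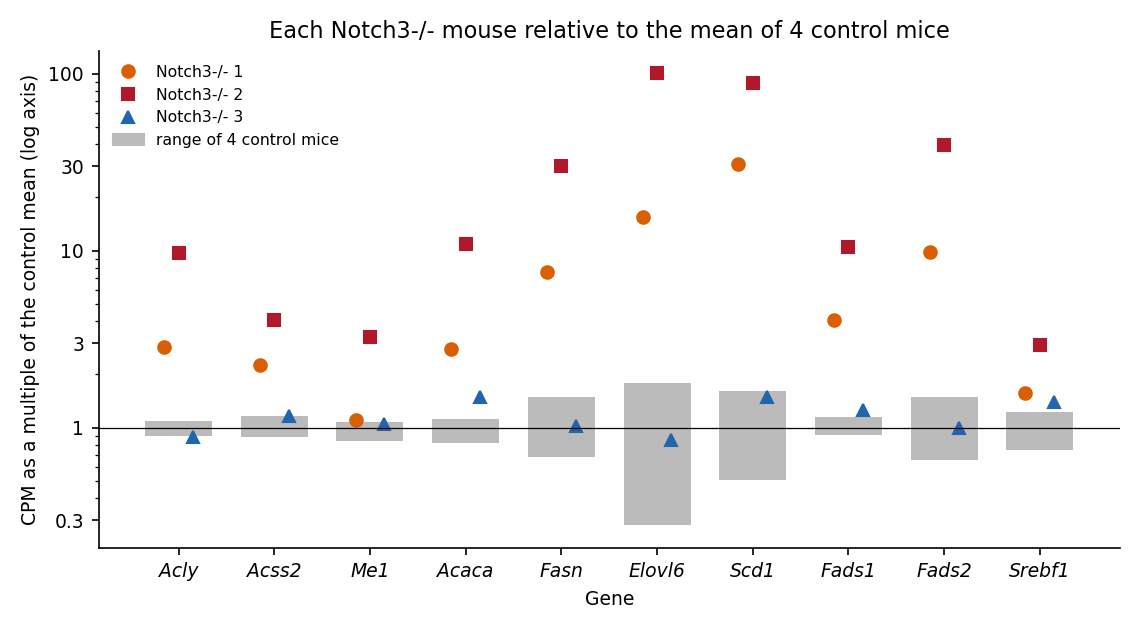
CPM of each gene in the 3 Notch3-/- mice as a multiple of the mean of the 4 control mice (log axis). The grey bars give the range of the control mice. Mouse 2 reaches 100.5 times the control mean for Elovl6 and 88.6 times for Scd1, and mouse 3 stays between 0.845 and 1.49 times for all 10 genes.

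Counted mouse by mouse, 10 of the 10 genes lay above all 4 control mice in Notch3-/- mouse 1, where 23.9% of all genes tested did so, and 10 in mouse 2, where 29.3% did. In mouse 3 it was 4 genes, Acss2, Acaca, Fads1 and Srebf1, with 20.1% of the genes tested. For these 4 genes all 3 Notch3-/- mice were above the control mice, as they were for 655 of the genes tested (4.57%). The median log2 difference of the 10 genes from the control mean was 1.76 in mouse 1, 3.41 in mouse 2 and 0.18 in mouse 3, against 0.01 in each mouse for all genes tested. Mouse 2 exceeded mouse 1 for every one of the 10 genes, by 1.79 times for Acss2 and by 6.46 times for Elovl6, with a median of 3.18. Over all genes tested the median of this ratio was 1.01.

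The calls depended on mouse 3. Without it edgeR called 9 of the 10 genes, all but Me1, among 936 of 15008 genes tested (6.24%), and the FDR of Scd1 was 3.5e-05. With mouse 3 alone against the control mice, where the lone mouse is assumed to vary like the others, edgeR called 0 of the 10, and 0 had a p below 0.05 before adjustment. Their log2 fold changes were then between -0.24 for Elovl6 and 0.58 for Acaca. Without mouse 1 and without mouse 2 edgeR called none of the 10, and their median log2 fold change was 2.59 and 1.24. When every gene with at least 1 count was kept, edgeR called 9 of the 10, again without Me1, among 639 of 28790 genes (2.22%). The k-labelled mice alone, 2 control and 3 Notch3-/- mice, gave a median log2 fold change of 2.44, with none of the 10 called and an FDR of 0.734 to 0.774. There 6 of the 10 were higher with an edgeR p below 0.05 before adjustment (5.01% of the genes tested). The X-labelled mice are all controls and allow no comparison.

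**Figure D3:**
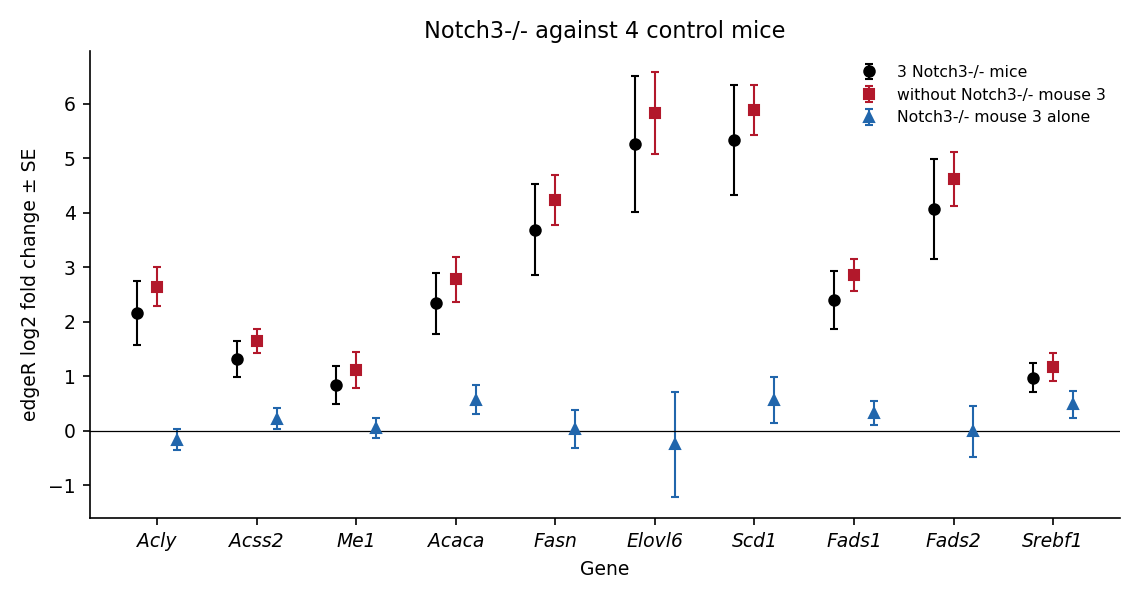
Log2 fold changes from edgeR with their SE for the 10 genes against the 4 control mice, with all 3 Notch3-/- mice, without Notch3-/- mouse 3, and with mouse 3 alone. Scd1 was at 5.33, 5.89 and 0.57 in these fits, and Srebf1 at 0.98, 1.17 and 0.49.

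The order of levels among the 10 genes was taken per kilobase of exon. In control hearts Me1 came first with 41.9 ± 4.601 CPM per kb (SD, n = 4), followed by Srebf1 with 19.1 ± 4.23 and Acly with 17.5 ± 1.496 CPM per kb. Next came Acss2 with 11.7 ± 1.44, Fads1 with 10.1 ± 1.04, Scd1 with 6.85 ± 3.14, Fasn with 3.26 ± 1.13 and Fads2 with 2.95 ± 1.17 CPM per kb. Acaca with 1.16 ± 0.153 and Elovl6 with 0.522 ± 0.431 CPM per kb were last. The ranges of the control mice overlapped between Srebf1 and Acly and between neighbours from Acss2 to Fads2, so these orders are not separated, whereas Me1, Acaca and Elovl6 did not overlap with their neighbours. Notch3-/- mouse 3 had the same order, from Me1 at 43.8 to Elovl6 at 0.441 CPM per kb. Mice 1 and 2 had other orders and differed from each other, apart from the first 3 genes and Acaca as the last, with Scd1 first at 213 and 607 CPM per kb, then Acly at 49.8 and 169.8, and then Me1 at 46.2 and 136 CPM per kb.

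Of the 10 genes Scd1 came closest to the highest level that counts reached in a library. Over the 39619 genes with at least 200 exon bases, the highest value in any library was 1.97 counts per exon base, and 21 genes passed 1. Scd1 had 0.943 to 0.991 counts per exon base in the libraries of Notch3-/- mouse 2, 0.192 to 0.341 in those of mouse 1 and at most 0.0213 in a control library. The next highest of the 10 genes, Acly, reached 0.286. How duplicate reads were treated is not given in the sources used here, and whether the count of Scd1 in mouse 2 was held down at this level was not tested.

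The technical libraries showed the same division between the Notch3-/- mice. For 9 of the 10 genes all 3 libraries of mouse 1 and all 3 of mouse 2 were above the highest of the 12 control libraries, as they were for 306 of the 14324 genes tested (2.14%). The exception was Me1, for which 1 library of mouse 1 was above them. Fasn had 246 to 283 counts per 1e+06 counts of the library in mouse 1, 873 to 1178 in mouse 2, 29.9 to 43.7 in mouse 3 and 20.9 to 68.5 in the control libraries. In mouse 3 the libraries themselves differed, with Scd1 at 30.3, 38.3 and 70.8 per 1e+06 counts, the last of which was above the highest control library at 60.3. Its libraries 1 to 3 had hepatocyte marker sums of 106, 90.5 and 285 per 1e+06 counts. Apart from Acaca, each of the 10 genes was highest in library 3 of mouse 3, as the hepatocyte sum was. The sum of the 10 genes was 613, 681 and 874 per 1e+06 counts in libraries 1 to 3. Acaca had 16.4, 52.9 and 24.3 per 1e+06 counts in these libraries, the value of library 2 above the highest control library at 34.5. For Fads1 and for Srebf1, 2 of the 3 libraries of mouse 3 were above all 12 control libraries, and for Me1 1 was. None of the libraries of mouse 3 passed the control libraries for Acly, Acss2, Fasn, Elovl6 or Fads2. The separation of Acss2 in the summed counts was thus not seen in single libraries.

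Markers of hepatocytes moved with the 10 genes. The summed level of 22 hepatocyte markers was 60.6, 189, 19.5 and 33.1 CPM in control hearts and 7852.5, 14388.5 and 180.2 CPM in Notch3-/- hearts. All 22 were above the 4 control mice in Notch3-/- mice 1 and 2, and 11 of them in mouse 3, where 23.9%, 29.3% and 20.1% of all genes tested were in mice 1, 2 and 3. Of the 20 that passed the filter, edgeR called 0 with 20 higher at p below 0.05 before adjustment (7.34% of all genes tested), and limma-voom called 0 with 1 higher at such a p (4.63%). Only 1 of the 22 had a control mean above 10 CPM, and high values in the 3 Notch3-/- mice were enough to pass the filter. Markers that passed in this way were bound to be higher there, so these counts are no test against all genes. DESeq2 called 21 of 22 (3.43% of all genes), and edgeR without mouse 3 called 22 of 22 (6.24%). With mouse 3 alone edgeR called 0 of 20, and 1 was higher at p below 0.05 before adjustment (2.44% of all genes tested). Alb had the highest mean of the list in both genotypes, also per length, with 22.4, 81.1, 2.35 and 10.7 CPM in control and 1705, 1875 and 66.9 CPM in Notch3-/- hearts. Of the other defining markers, Ttr stood at 308, 445 and 7.75 CPM in Notch3-/- hearts, Apoa1 at 355, 648 and 10.8, Ahsg at 619, 815 and 8.13, and Cps1 at 367, 975 and 4.35 CPM. The last of these had 0 counts in control mouse 4. Hnf4a, a transcription factor, had 0, 1, 0 and 0 counts in control and 130, 693 and 2 counts in Notch3-/- hearts.

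Without regard to length, the mean in control hearts was above 10 CPM for 8 of the 10 synthesis and desaturation genes, and for 1 of the 22 hepatocyte markers, Alb. Control mouse 2 had the highest hepatocyte sum of the control mice, above that of Notch3-/- mouse 3. It also had the highest Scd1 of the control mice, but its sum of the 10 genes was below that of control mouse 1. This sum was 681, 607, 597 and 638 CPM in control hearts and 2587, 7706 and 728 CPM in Notch3-/- hearts. Mouse 1 was thus at 4.10, mouse 2 at 12.2 and mouse 3 at 1.15 times the control mean of this sum, and the hepatocyte sum was at 104, 190.2 and 2.38 times its own. From mouse 1 to mouse 2 the median ratio of CPM was 3.18 over the 10 genes and 2.12 over the 20 hepatocyte markers that passed the filter, from 1.10 for Alb to 22.3 for Cyp3a11, both named after their values were seen. Alb had 0.816 to 1.02 counts per exon base in the libraries of mouse 1 and 1.24 to 1.30 in those of mouse 2. Apoa2, Hpx, Fabp1 and Gc, also named after their values were seen, reached 1.10, 0.988, 0.926 and 0.885 counts per exon base in a library. Whether counts of the hepatocyte markers, and with them these ratios and sums, were held down at such levels was not tested. The part of hepatocyte RNA in the levels of the 10 genes was not tested.

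Other cell types were followed with shorter lists. The summed level of 12 adipocyte markers was 66.2, 57.5, 68.7 and 88.5 CPM in control hearts and 296, 599 and 68.6 CPM in Notch3-/- hearts, and 2, 5 and 0 of the 12 were above all control mice, where 23.9%, 29.3% and 20.1% of all genes tested were. Only 3 of the 12 passed the filter, and the counts in mice 1 and 3 are no higher than those shares. Car3, with 238, 534 and 2.27 CPM in Notch3-/- hearts, was the most abundant of them in mice 1 and 2 and made up most of their sums. Cidea was the most abundant in mouse 3 and in control hearts, and both hold per length. Of the defining adipocyte markers Adipoq had 0, 3, 0 and 7 counts in control and 2, 1 and 0 counts in Notch3-/- hearts, and Plin1 0, 1, 0 and 1 counts in control and 0 in all 3 Notch3-/- hearts. Retn had 1 or 2 counts in every mouse, and Cidec 1, 2, 0 and 6 counts in control and 9, 90 and 0 counts in Notch3-/- hearts. The part of adipocyte RNA was not tested.

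The 11 cardiomyocyte markers, with Actc1 as the most abundant per length in control hearts and Ttn the highest in CPM, summed to 32951, 23865.5, 27612 and 31577 CPM in control hearts and 32355.5, 21598 and 23166 CPM in Notch3-/- hearts. Notch3-/- mouse 1 was inside the control range, and mice 2 and 3 were below the lowest control mouse. All 11 had a log2 fold change below 0, with a median of -0.24, where 7216 of the 14324 genes tested were below 0. Of the 11, edgeR, DESeq2 and limma-voom called 0, and 0 had a p below 0.05 before adjustment, while without Notch3-/- mouse 1 edgeR had 10 lower at such a p (3.6% of the genes tested), 0 called and a median of -0.40. The counts of Myh6 and of Mb, named after its values were seen, spanned less than the totals of the mice. Myh6 had 0.729 to 1.00 counts per exon base in Notch3-/- libraries, and Mb had 3845 to 4398 counts per mouse and 0.904 to 0.994 counts per exon base in Notch3-/- libraries. Of the 39619 genes with at least 200 exon bases 21 passed 1 in a library, and whether the counts were held down there was not tested, so nothing is read from the genotypes for these markers.

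**Figure D4:**
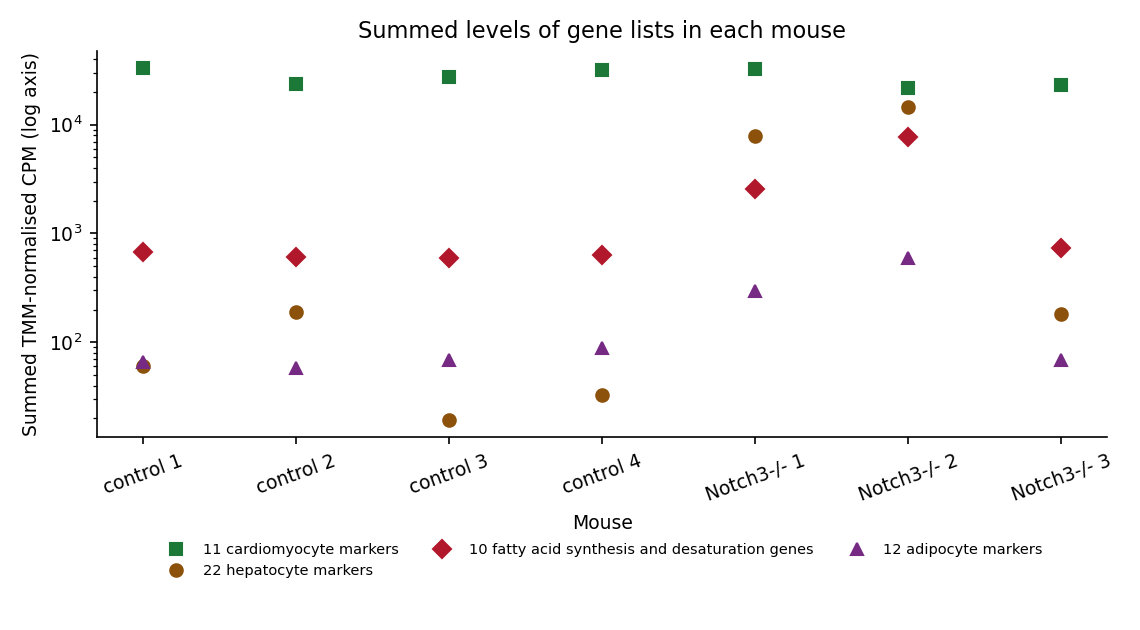
Summed TMM-normalised CPM (log axis) of the 10 fatty acid synthesis and desaturation genes and of 3 marker lists in each of the 7 mice. The hepatocyte sum is 7852.5 and 14388.5 CPM in Notch3-/- mice 1 and 2 and 180.2 CPM in mouse 3, and the cardiomyocyte sum lies between 21598 and 32951 CPM in all mice.

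A further 59 genes of the pathway were taken from a list made by role, and 54 of them passed the expression filter. Of these, edgeR called 0, with 20 higher (7.34% of all genes tested) and 3 lower (3.05%) at p below 0.05 before adjustment, and their median log2 fold change was 0.21. DESeq2 called 5 of 58 (3.43% of all genes), limma-voom 0 of 54, and edgeR without Notch3-/- mouse 3 called 16 of 56, all of them higher (6.24% of all genes). Some other fits had fewer genes higher at p below 0.05 before adjustment. In limma-voom it was 11 of 54 (4.63% of all genes tested) and in edgeR without mouse 2 it was 7 of 55 (4.29%). In the k-labelled mice it was 5 of 55 (5.01%), and 0 were called in each of these fits. With mouse 3 alone the median log2 fold change of the list was 2.03e-05. In mice 1, 2 and 3, 24, 30 and 11 of the 54 genes were above all control mice, where 23.9%, 29.3% and 20.1% of all genes tested were, so the count in mouse 3 is near that of all genes.

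Of 5 genes around acetyl-CoA and NADPH supply, all 5 had an edgeR log2 fold change above 0 with all 7 mice, as did 7108 of the 14324 genes tested. Called were 0 by edgeR and limma-voom and 2 by DESeq2 (3.43% of all genes), and 4 had an edgeR p below 0.05 before adjustment (7.34%). Without mouse 2 such a p was seen for 2 of them (4.29% of all genes tested), and with mouse 3 alone for 0 (2.44%). Slc25a1, which exports citrate from mitochondria, had 58, 71, 95 and 70 counts in control and 277, 1052 and 120 counts in Notch3-/- hearts (log2 fold change 2.42, SE 0.59, FDR 0.170). Aacs, a cytosolic acetoacetyl-CoA synthetase, had 34, 77, 55 and 49 counts in control and 208, 978 and 96 counts in Notch3-/- hearts (2.72, SE 0.64, FDR 0.165). Both were highest in mouse 2, as Acly was. Idh1 and Pgd, which yield NADPH, had log2 fold changes of 0.85 and 0.46 (FDR 0.361 and 0.341), and Idh1 was the most abundant of this group per length in control hearts.

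The other carboxylase gave another picture. Acacb, whose malonyl-CoA is known to limit the entry of fatty acids into mitochondria, stood at 488, 421, 367 and 444 CPM in control and at 422, 407 and 482 CPM in Notch3-/- hearts. The genotypes overlapped (log2 fold change 0.02, SE 0.12, FDR 0.968). Its level in control hearts, 44.6 CPM per kb, was far above the 1.16 CPM per kb of Acaca, and also above the 12.7 CPM per kb that Acaca reached in Notch3-/- mouse 2. Mlycd, which degrades malonyl-CoA, had a log2 fold change of -0.15 (FDR 0.843).

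The separate mitochondrial pathway of fatty acid synthesis held 6 tested genes, with a median log2 fold change of -0.30. With all 7 mice 6 of 6 were below 0 in edgeR, as were 7216 of the 14324 genes tested, but with technical library 1 alone 3 of 6 were, with a median of 0.01. In 1 of the 6 the edgeR p was below 0.05 before adjustment (3.05% of all genes were lower at such a p), and edgeR, DESeq2 and limma-voom called 0. That gene was Hsd17b8, listed as H2-Ke6 in the annotation. It stood at 46.8, 37.3, 34.8 and 50.8 CPM in control and at 32.5, 29.4 and 29.9 CPM in Notch3-/- hearts (log2 fold change -0.47, SE 0.18, FDR 0.4001). The genotypes did not overlap for it, and the 3 Notch3-/- mice were close to each other. Of the 14324 genes tested, 567 lay below all control mice in this way. Hsd17b8 lies at chr17:34026033-34028060, on the chromosome of Notch3 (chr17:32120820-32166852). An effect of sequence linked to the targeted locus cannot be told apart from one of the genotype here, and was not tested. Oxsm, Mcat and Cbr4 had log2 fold changes of -0.40, -0.36 and -0.23, with FDR between 0.542 and 0.628. Ndufab1, the acyl carrier protein and the most abundant gene of the group per length, had -0.19 (FDR 0.640).

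Of the elongation genes 7 of 11 passed the filter, and DESeq2 called 2 of 10 (3.43% of all genes). Elovl5, which elongates polyunsaturated chains, stood at 44.8, 49.5, 55.0 and 61.1 CPM in control and at 131, 676 and 50.9 CPM in Notch3-/- hearts (log2 fold change 2.44, SE 0.67, FDR 0.226). Mouse 3 was inside the control range, as it was for Elovl6. Hsd17b12, Hacd3 and Hacd2, which act in later steps of elongation, had log2 fold changes of 0.96, 0.77 and 0.49 (FDR 0.288, 0.454 and 0.670). Tecr, which acts in the last step and was the most abundant of the group at 213 CPM per kb, had a log2 fold change of -0.22 (FDR 0.496). It lay below all control mice in all 3 Notch3-/- mice, as did 567 of the 14324 genes tested. Elovl2 and Elovl3 did not pass the filter and are named after their values were seen. Elovl2 had 0, 6, 1 and 0 counts in control and 342, 2115 and 6 counts in Notch3-/- hearts, and Elovl3 0, 3, 0 and 0 counts and 2, 742 and 3 counts. Elovl3 was thus seen in mouse 2 nearly alone.

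Scd2, a paralog of Scd1 on the same chromosome, stood at 24.4, 21.3, 18.4 and 21.04 CPM in control and at 31.7, 40.8 and 29.3 CPM in Notch3-/- hearts. All 3 Notch3-/- mice were above the control mice, as they were for 655 of the 14324 genes tested (4.57%). The 3 Notch3-/- values were close to each other, unlike those of Scd1. The log2 difference of Scd2 was 0.68 (SE 0.19, FDR 0.224). Cyb5a and Cyb5r3, which pass electrons to the desaturases, had log2 fold changes of 0.71 and 0.63 (FDR 0.470 and 0.426), and Fads6 had 1.76 (FDR 0.395) from 6 to 17 counts in control mice. Of the 6 desaturation genes tested here 4 were higher with an edgeR p below 0.05 before adjustment (7.34% of all genes), and without mouse 2 it was 1 of 6 (4.29%), with 0 called in both. Cyb5r3 was the most abundant per length.

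Among 17 other regulators 5 were higher and 1 lower with an edgeR p below 0.05 before adjustment, compared with 7.34% and 3.05% of all genes tested, so the count of lower genes is near that of all genes. Without mouse 2 it was 1 higher of 17 (4.29% of all genes), and edgeR, DESeq2 and limma-voom called 0 with all 7 mice. Insig1, which holds SREBP proteins in the endoplasmic reticulum and is itself a known SREBP target, stood at 43.1, 62.2, 48.5 and 55.4 CPM in control and at 111.5, 295 and 41.6 CPM in Notch3-/- hearts (log2 fold change 1.51, SE 0.50, FDR 0.322). Mouse 3 had less Insig1 than any control mouse. Thrsp, a gene linked to lipogenesis, had a log2 fold change of 1.27 (FDR 0.329), Scap, the escort protein of SREBP, 0.81 (FDR 0.277) and Nr1h3, which encodes LXR alpha, 0.74 (FDR 0.420). Mid1ip1, the most abundant of the group per length, had -0.24 (FDR 0.625).

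Among 11 genes of fatty acid activation and esterification 4 were higher and 1 lower with an edgeR p below 0.05 before adjustment, compared with 7.34% and 3.05% of all genes tested, and DESeq2 called 1 (3.43% of all genes). Without mouse 2 it was 2 higher of 11 (4.29%). Acsl5, an acyl-CoA synthetase, stood at 35.6, 39.6, 37.6 and 45.8 CPM in control and at 107.9, 346 and 42.9 CPM in Notch3-/- hearts (log2 fold change 2.06, SE 0.54, FDR 0.206). Pnpla3 had 4, 12, 24 and 19 counts in control and 74, 151 and 24 counts in Notch3-/- hearts (2.24, SE 0.64, FDR 0.248). Both had their highest values in mouse 2. Acsl4 and Acsl3 had log2 fold changes of 0.94 and 0.93 (FDR 0.397 and 0.357). Dgat2, which makes triglycerides and was the most abundant of the group per length, had 0.08 (FDR 0.889).

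**Figure D5:**
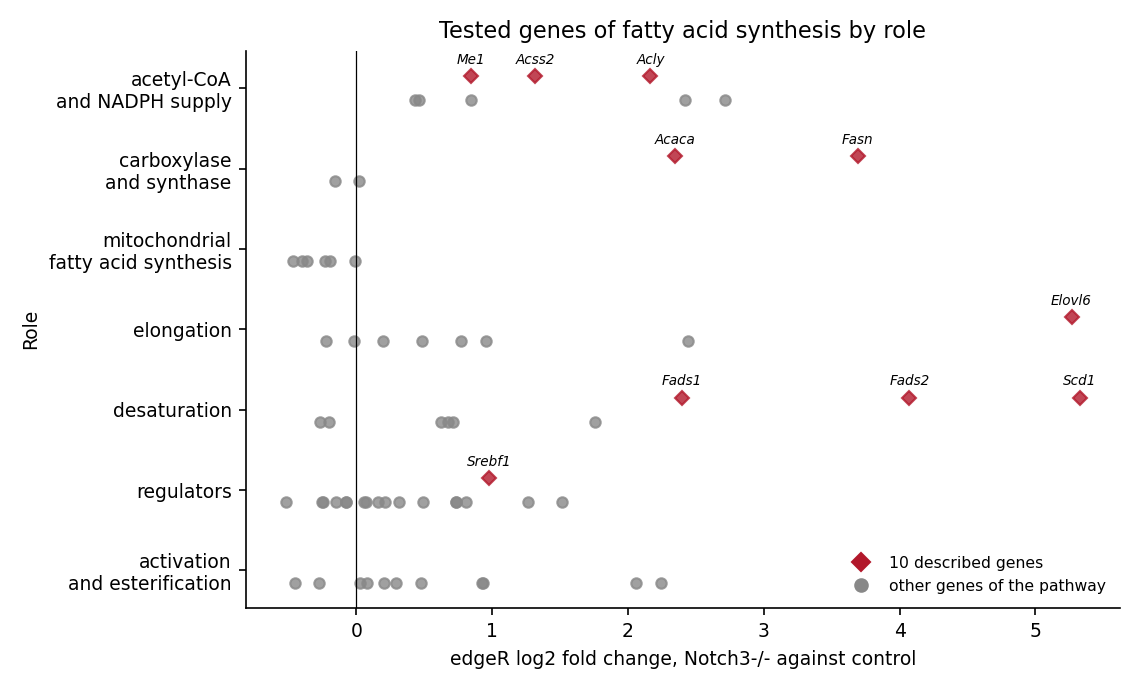
Log2 fold changes from edgeR of the tested genes of the pathway, 1 point per gene, by role. Diamonds are the 10 genes described here, at 0.85 to 5.33, and circles the 54 others, which run from -0.52 to 2.72.

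The 10 genes lie on 5 chromosomes, with Acly, Acaca, Fasn and Srebf1 on chromosome 11 and Scd1, Fads1 and Fads2 on chromosome 19. Since most of them moved together in mice 1 and 2, their promoters were searched for letters that known regulators bind. RefSeq promoters of 300 bases on GRCm38.p6, from 250 bases before a start site to 50 after it, were found for 8 of the 10, not for Scd1 and Fads1, and made 11 promoters in all. On both strands, the sterol regulatory element TCACNCCAC was in 0 of the 11 promoters and in 1.24% of all 32851, and the E-box CACGTG in 0 of the 11 and in 7.15% of all. CCAAT, the letters that NF-Y binds, was in 6 of the 11, belonging to Acly, Acss2, Fasn, Me1 and Srebf1, and in 37.4% of all promoters. The Acly match lies 38 bases after the start site. The Me1 match is in a window inside the gene (chr9:86687228-86687527), and the window at the gene's start (chr9:86695865-86696164) has 0. The window found for Acaca (chr11:84195188-84195487) also lies inside the gene, which starts at chr11:84129672. A match or its absence describes the letters of these windows only.

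The promoters of Fasn (chr11:120824498-120824797, minus strand), Acss2 (chr2:155517793-155518092, plus strand) and 1 of 3 of Srebf1 (chr11:60210422-60210721, minus strand), from RefSeq on GRCm38.p6, are shown as the synthase, an acetyl-CoA source whose genotypes did not overlap, and the regulator. Capitals mark CCAAT or its reverse complement.
Fasn: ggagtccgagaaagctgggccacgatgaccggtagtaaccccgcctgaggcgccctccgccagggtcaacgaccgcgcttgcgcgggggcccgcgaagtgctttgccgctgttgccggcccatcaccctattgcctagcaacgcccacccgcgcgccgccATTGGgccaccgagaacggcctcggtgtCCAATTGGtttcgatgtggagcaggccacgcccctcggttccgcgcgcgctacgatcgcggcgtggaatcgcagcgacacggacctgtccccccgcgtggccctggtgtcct
Acss2: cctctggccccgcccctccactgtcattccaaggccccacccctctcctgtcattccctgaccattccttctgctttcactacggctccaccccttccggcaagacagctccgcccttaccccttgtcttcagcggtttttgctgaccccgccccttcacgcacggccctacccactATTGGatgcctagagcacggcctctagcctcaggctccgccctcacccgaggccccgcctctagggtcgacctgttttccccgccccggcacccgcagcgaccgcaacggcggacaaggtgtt
Srebf1: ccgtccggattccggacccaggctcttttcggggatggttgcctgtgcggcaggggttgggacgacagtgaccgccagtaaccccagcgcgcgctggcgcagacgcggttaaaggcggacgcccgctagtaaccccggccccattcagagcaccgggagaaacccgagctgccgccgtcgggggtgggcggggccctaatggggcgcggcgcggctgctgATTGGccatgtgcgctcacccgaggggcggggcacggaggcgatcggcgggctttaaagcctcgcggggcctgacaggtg
Fasn has 3 matches, at -90, -62 and -59 bases from the start site, and the last 2 overlap on opposite strands. Acss2 has 1 match at -73 bases and Srebf1 1 match at -30 bases.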

How the data were processed

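The authors deposited counts, whole numbers of reads per Ensembl gene in each of 21 libraries, not normalised. PolyA RNA was reverse transcribed, amplified by PCR, fragmented with Tn5 and sequenced, and the submitters' processing notes name build mm10. Aligner, counter and duplicate handling are not given in the sources used here. The 92 ERCC spike-ins, with 34 counts in all, were left out. Positions and exon lengths came from GENCODE vM21 (46005 of 46517 genes matched). Counts were summed per mouse and tested in R 4.3.3 with edgeR 4.0.16 (filterByExpr, TMM, quasi-likelihood F-test, genotype only, Benjamini-Hochberg adjustment over all genes tested). SE is the log2 fold change divided by the root of F. Differences from the control mean used log2(CPM + 0.5). Alternatives used DESeq2 1.42.0 and limma 3.58.1. The fits were tested on simulated counts, and the outcome of that test is not given here. The 10 genes and all lists were chosen with earlier results of these data known. Named are the 10, Notch3, in each role the 4 tested genes with the largest absolute log2 fold change and the most abundant per length, and of each marker list the most abundant and defining genes. The exception is the cardiomyocyte list, whose defining markers Tnnt2 and Tnni3 were counted with the list only. The reads carry no molecular identifiers, so precision from counts covers counting error only.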

Additional observations from a re-analysis of the deposited data

Results flagged for a closer look

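In the 4 control mice, 45 sets of values were examined for a sample far from the others, and 2 stood out, where chance gives about 1 in 20. Thrsp had 100.5 CPM in control mouse 2 and 60.8 to 65.5 CPM in the others, a gap of 0.881 of the whole range. Acsl4 had 23.2 CPM in control mouse 2 and 11.02 to 11.9 CPM in the others, a gap of 0.932. None of the 10 fatty acid synthesis and desaturation genes stood out in this way. The 3 Notch3-/- mice are too few for this examination.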

How the results depend on the processing

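Over 21 alternatives, 208 values of the 10 genes were obtained, and 166 had the direction and the side of the thresholds of the fit on 7 mice, while 39 were called in addition. The alternative with no fold threshold reuses the fit on 7 mice, where none of the 10 had an FDR below 0.05. Its values for the 10 genes and for Notch3 were therefore bound to count as the same. The 3 that reversed came from Notch3-/- mouse 3 alone, at -0.16 for Acly, -0.24 for Elovl6 and -0.0046 for Fads2, and the cause was not tested. Elovl6 did not pass the filter of 2 alternatives. The number of genes called was 597 with DESeq2, 65 with limma-voom on the 21 libraries, 639 with every gene, 0 in the k-labelled mice and 48, 39 and 77 with technical library 1, 2 or 3 alone. Of the 10 genes, 8, 4, 9, 0, 2, 3 and 4 were called in these. Leaving out each mouse gave 1 to 936 genes called and 0 to 9 of the 10, the highest without Notch3-/- mouse 3, and 4 to 10 of the 10 above every control mouse, where 6.26% to 15.3% of all genes were. That last number was 7 in the k-labelled mice (12.4% of all genes) and 2 with technical library 1 alone (3.28%), beside 4 with 7 mice (4.57%).

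The technical library number names libraries of a mouse and pairs no mice. With it as a block in limma-voom on the 21 libraries, 8 genes were called and 0 of the 10. RLE factors, total counts, thinning to 3046326 counts per mouse, limma-voom on the 7 mice and no fold threshold each called 1 gene and 0 of the 10. Notch3 was called in 20 of the 21 alternatives, and had an FDR of 0.206 in the k-labelled mice, where edgeR compared 2 with 3 mice. Elovl6 and Fads2 had 3 to 53 counts per control mouse, and thinning gave them log2 fold changes of 5.30 and 4.01.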
